A study of Mus musculus with 4 samples.

Results

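The genes described here are 10 glycolysis genes of the mouse brain: the hexokinase gene Hk1, the aldolase gene Aldoa, the triosephosphate isomerase gene Tpi1, Gapdh, the phosphoglycerate kinase gene Pgk1, the enolase genes Eno1, Eno1b and Eno2, the pyruvate kinase gene Pkm and the lactate dehydrogenase gene Ldha. They were picked by gene symbol, and all 10 were found among the 45184 genes of the tables, with 110 annotated transcripts. RNA abundance had been measured in 4 groups of wild-type mice with 1 library each: 2 inbred strains and their hybrids. C57BL/6 (B6) is the common laboratory strain, and CAST/EiJ (CAST) is an inbred strain of castaneus origin. F1i stands for the hybrids labelled C57BL/6 x CAST/EiJ, and F1r for those of the reverse cross, CAST/EiJ x C57BL/6. The tissue is given as brain. The left hemispheres of 5 mice had been pooled for each library, although the series design names whole brain, and no ages or sexes are given in the labels. With 1 library per group there is no replicate error, and no difference below has a test, an SD or a p-value.

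Glycolysis splits glucose into pyruvate in the cytosol and yields ATP and NADH, and lactate dehydrogenase turns pyruvate into lactate and back. The brain depends on glucose as its main fuel. Hk1 is the main brain hexokinase, and enolase, which makes phosphoenolpyruvate, exists as Eno1 (the broadly expressed form), Eno2 (the neuronal form) and Eno3 (the muscle form). Eno1b is annotated as a protein-coding gene with a sequence nearly the same as that of Eno1. Many glycolysis genes have processed pseudogenes, which are copies of their spliced RNA put back into the genome, and short reads from such copies can be hard to assign.

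Levels are FPKM, a fragment count divided by transcript length and by the size of the library, as the authors deposited them, summed over the transcripts of a gene, so they are already per length. Series of 4 values without names are in the order B6, CAST, F1i and F1r. Differences between libraries are of log2(FPKM + 1), a scale that understates the change of low genes, and a gene was counted when it was at least 2-fold apart on it. The lowest nonzero values of long transcripts placed the depth of CAST, F1i and F1r at 0.722, 0.793 and 0.723 of that of B6. All 8 neuron markers were at 37.6 FPKM or more in every library and all 8 astrocyte markers at 11.1 or more, as in brain tissue. In such bulk RNA, fewer cells of a type and less RNA per cell cannot be told apart.

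Between the parental strains, 3 of the 10 genes were at least 2-fold apart: Eno1b was higher in CAST, and Eno1 and Gapdh were lower. For reference, 5.09% of the 13750 genes with a mean of at least 1 FPKM passed the same rule, with 2.84% higher and 2.25% lower. The median difference over the 10 genes was -0.12, beside 0.04 over all genes. Of the 31-base words of their main transcripts, 77.2% for Eno1 and 88.5% for Eno1b occur in other annotated genes. For Gapdh the share was 92.1%, taken from Gapdh-201, a coding form that was itself listed at 0. Pgk1 and Pkm, which were not 2-fold apart, were at 68.3% and 50.9%. Over all transcripts of each gene, the shares were 28.5% for Eno1, 89.0% for Eno1b, 27.2% for Gapdh, 54.7% for Pgk1 and 34.7% for Pkm. The 7 genes that were not 2-fold apart lay between -0.27 and 0.20 in CAST minus B6. No gene of the 10 was 2-fold apart between F1r and F1i, where 0.495% of all genes were (0.233% higher in F1r, 0.262% lower), and the differences ran from -0.15 to 0.19.

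**Figure D1:**
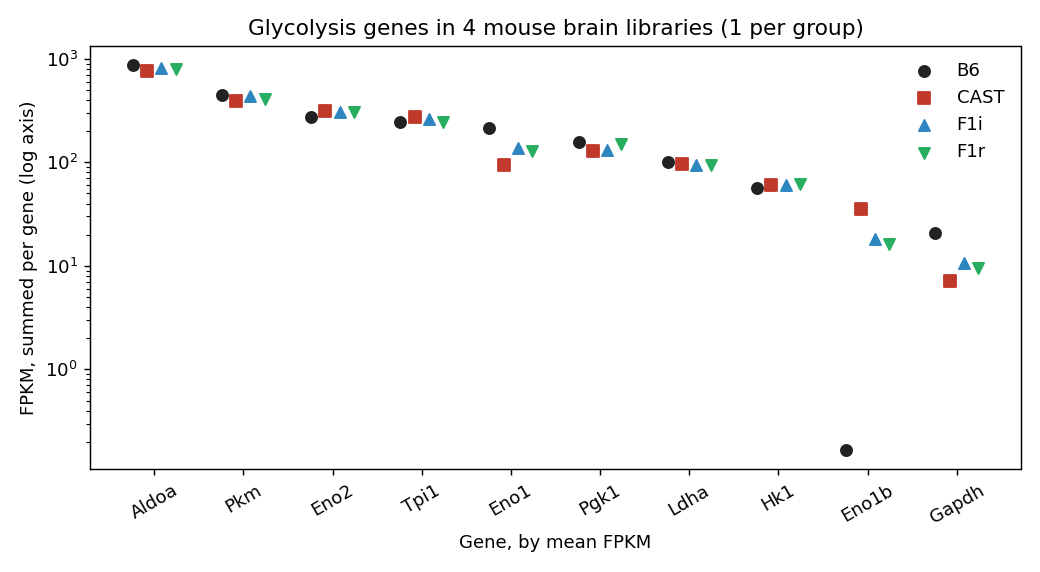
Levels of the 10 genes (x axis, ordered by mean) in FPKM on a log axis; each point is 1 library, with its group given by colour and shape. Points of 7 genes lie close together, while Eno1 and Gapdh are highest in B6 and Eno1b is at 0.168 FPKM in B6 and 35.2 in CAST.

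Hk1 commits glucose to the cell by phosphorylating it. It stood at 56.3 FPKM in B6, beside 60.7 in CAST, with 60.7 and 61.1 in the F1i and F1r hybrids. B6 was the lowest, and the difference of CAST from B6 was 0.11. None of the 31-base words of Hk1 occurs in another annotated gene. Transcript Hk1-202 carried 94.9% (B6), 93.8% (CAST), 89.0% (F1i) and 93.8% (F1r) of the level. Hk2, the inducible muscle and fat form, was at 2.24, 1.497, 1.49 and 1.35 FPKM in B6, CAST, F1i and F1r, so Hk1 was by far the higher hexokinase in each library. Hkdc1, a further hexokinase family member, went from 1.52 FPKM in B6 to 0.221 in CAST and lay at 0.530 and 0.719 in F1i and F1r, with a mean under the filter of 1 FPKM.

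Aldoa splits fructose 1,6-bisphosphate into both triose phosphates, and it was the highest of the 10 genes in all 4 libraries. Its level was 867 (B6), 765 (CAST), 818 (F1i) and 795 FPKM (F1r). B6 was highest and CAST lowest, with a difference of -0.18. Aldoa-201 made up 90.2% to 91.6% of it. Tpi1, which interconverts the triose phosphates, was at 245, 272, 261 and 247 FPKM. CAST was the highest and the difference was 0.15. The intronless copy Tpi-rs11, 310 bases long, was itself at 17.0, 18.2, 20.4 and 16.9 FPKM and moved little between the strains. Muscle also makes much Aldoa, and of 10 skeletal muscle genes set beside it 5 had a mean of at least 1 FPKM. Apart from Pvalb, which neurons also make, none exceeded 5.17 FPKM. That value was Acta1, the muscle actin, in B6, beside 1.98 in CAST, 1.90 in F1i and 2.26 in F1r. Tnnc2 and Ckm had 2.90 and 1.45 FPKM in the B6 library and were listed at 0 in that of CAST, and the part of these genes in the Aldoa values was not tested.

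Pgk1, the first ATP-yielding enzyme of the pathway, lies on chromosome X (GRCm38, chrX:106187100-106203699, plus strand). It was at 156 FPKM in B6 against 129.8 in CAST, with F1i at 132 and F1r at 150.3. F1i was next to CAST and F1r next to B6: with B6 set to 0 and CAST to 1, they stood at 0.936 and 0.229. This was the largest F1r minus F1i difference of the 10 genes, at 0.19, and it is well under 2-fold. Pdk3, another X-linked gene of glucose use, stood at 17.5, 15.3, 15.1 and 16.6 FPKM, with F1i again nearer to CAST. The X-linked Pdha1 did not differ in this way, at 76.8, 78.7, 74.7 and 78.4 FPKM. The coding bases of Pgk1 are identical to those of its processed pseudogene Pgk1-rs7, yet that copy was listed at 0.544, 0.460, 0.534 and 0.427 FPKM only. Outside the coding part Pgk1 is more distinct, as 68.3% of all words of Pgk1-201 occur elsewhere.

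Gapdh oxidises glyceraldehyde 3-phosphate and makes the NADH of glycolysis, and its RNA is commonly taken as an abundant loading control. In these tables it was among the lowest of the 10, at 20.97 FPKM in B6, beside 7.17 in CAST, with 10.6 and 9.43 in the F1i and F1r hybrids. B6 was above the other 3 libraries, and the difference of CAST from B6 was -1.43. The coding transcripts Gapdh-201 and Gapdh-202 were listed at 0 in all 4 libraries. Gapdh-203, also annotated as coding and 1420 bases long, was at 0.260, 0.062, 0.927 and 0.089 FPKM. Retained-intron transcripts summed to 16.1 (B6), 5.81 (CAST), 5.72 (F1i) and 6.49 FPKM (F1r), and transcripts annotated as protein-coding to 4.16, 1.35, 2.19 and 2.94. Gapdh-206, a retained-intron transcript of 565 bases, reached 8.86 FPKM in B6 but was listed at 0 in the other 3. Without it the gene stood at 12.1, 7.17, 10.6 and 9.43 FPKM and was no longer 2-fold apart, at -0.68. The longest one, Gapdh-213, was at 4.60, 2.38, 3.51 and 3.12 FPKM, with both hybrids between the parents.

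The coding part of Gapdh-201 has every one of its 31-base words in another annotated gene, and 92.1% of the words of the whole transcript occur elsewhere. A search of the annotation and the names found 43 copies, 40 of them processed pseudogenes. Their levels summed to 25.3 FPKM in B6 against 24.9 in CAST, with F1i at 27.4 and F1r at 25.3, which is more than Gapdh itself in each library. Most of it was Gm7336, a processed pseudogene at chr7:51746647-51747878 (plus strand), whose coding bases are the same as those of Gapdh at all 1002 positions. Gm7336 was at 14.8 FPKM in B6, beside 13.3 in CAST, with 15.5 and 13.9 in the F1i and F1r hybrids. With the copies added as FPKM times length, which is proportional to fragments, CAST stood at 74.0% of B6, F1i at 89.3% and F1r at 80.3%, and the difference was -0.43 on the log2 scale. Gapdh also overlaps Iffo1 on the opposite strand, which was at 11.6, 12.3, 11.7 and 11.8 FPKM, near the level listed for Gapdh. How reads with several matches were counted, and whether by strand, is not given in the sources used here, so the Gapdh values are uncertain.

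Among the enolases, which act after phosphoglycerate mutase, 1 gene was lower and another higher in CAST. Eno1 (chr4:150236721-150248879, plus strand) was at 215 (B6), 94.9 (CAST), 137 (F1i) and 129.7 FPKM (F1r). B6 was highest, CAST lowest, and both hybrids lay nearer to CAST, at positions of 0.645 and 0.709. The difference of -1.17 was past 2-fold. Eno1b (chr18:48045335-48048412, plus strand) ran the other way, at 0.168 FPKM in B6 against 35.2 in CAST, with F1i at 18.1 and F1r at 16.2. The hybrids were close to midway, at 0.513 and 0.459, and only 14 of the 13750 genes had a higher CAST minus B6 difference than its 4.95. As untransformed FPKM, CAST was 209.5 times B6, a ratio that rests on the low value in B6.

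A further locus of nearly the same sequence had the order of Eno1b. Gm4735 is a processed pseudogene at chr2:80837141-80838442 (plus strand), was chosen as a copy by its sequence, and was at 5.96 FPKM in B6, beside 41.1 in CAST, with 22.3 and 21.1 in the F1i and F1r hybrids. CAST was highest, B6 lowest, and the hybrids lay at 0.466 and 0.430. Of the 31-base words of Gm4735, 89.5% occur in Eno1, and of those of Eno1b 81.8% do. Over aligned coding bases the Eno1 and Eno1b genes differ at 8 of 1305 positions, Eno1 and Gm4735 at 5 of 1302, and Eno1b and Gm4735 at 3 of 1302. These comparisons used the GENCODE M21 transcripts of the C57BL/6-based reference. The CAST sequence of these loci was not analysed here.

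Along transcript Eno1-202, 73.0% of the 31-base words occur in either copy. The longest run of identical bases is 751 with Eno1b and 725 with Gm4735. Exons 2 to 7 and exon 10 are shared for 100% of the words that start in them, the last coding exons less so, and exon 1 for 4.37%. Exon 11 is the coding exon with the lowest share, at 32.2%. The neuronal enolase Eno2 is far more distinct: it differs from Eno1 at 325 of 1305 aligned coding bases, an identity of 75.1%, and 1.27% of its main transcript's words occur elsewhere.

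**Figure D2:**
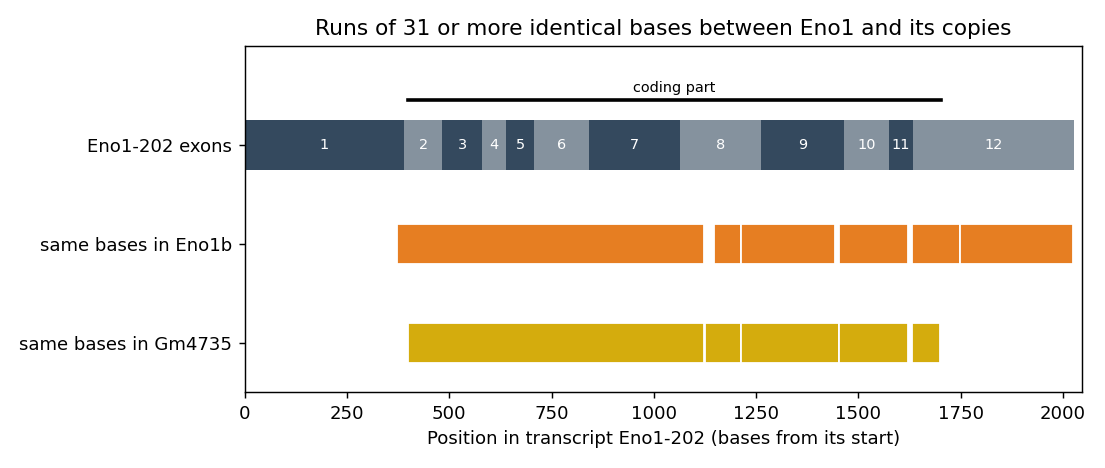
Exons 1 to 12 of transcript Eno1-202 (top, x axis in bases from its start) with the runs of at least 31 identical bases found in Eno1b and in Gm4735 (coloured bars). The runs cover nearly the whole coding part, the longest being 751 and 725 bases, and they leave most of exon 1 uncovered.

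Eno1 plus Eno1b summed to 215 (B6), 130.1 (CAST), 156 (F1i) and 146 FPKM (F1r). B6 remained highest and CAST lowest, with a difference of -0.72 that was under 2-fold, although as FPKM times length the same sum gave -1.08. Eno1b held 0.078% (B6), 27.04% (CAST), 11.6% (F1i) and 11.1% (F1r) of the summed FPKM. With Gm4735 added as well, as FPKM times length, CAST stood at 58.6% of B6, F1i at 76.8% and F1r at 71.4%, a log2 difference of -0.77 for CAST. Eno1 alone on that scale stood at 32.8%, 64.0% and 59.7% of B6. Within its own library, Eno1 was 98.2% (B6), 55.0% (CAST), 81.8% (F1i) and 82.1% (F1r) of the 3-gene sum, while Gm4735 was 1.78%, 20.9%, 8.68% and 8.80%. The part of the copies was highest in CAST, lower in the hybrids and lowest in B6.

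**Figure D3:**
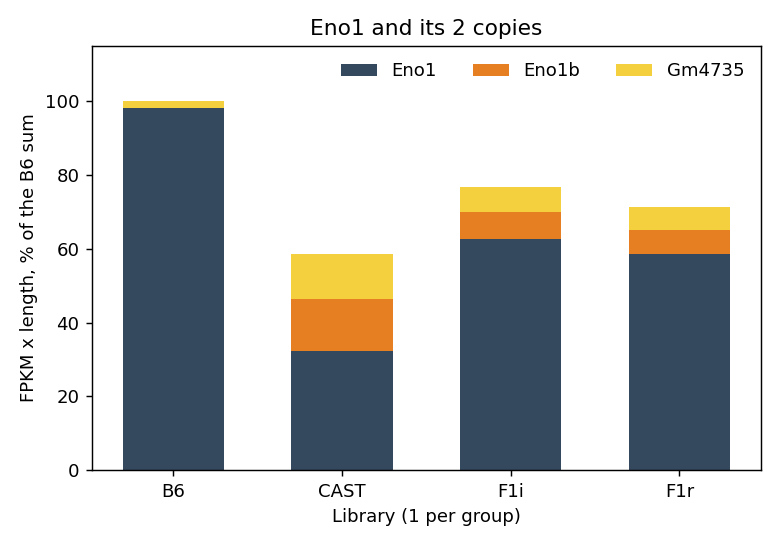
Stacked FPKM times length of Eno1, Eno1b and Gm4735 (y axis, as a percent of the 3-gene sum in B6) in the 4 libraries (x axis, 1 each). The sum is 58.6% in CAST, 76.8% in F1i and 71.4% in F1r, and the parts of Eno1b and Gm4735 are largest in CAST.

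The transcripts of Eno1 also differed. Eno1-202, the full-length coding form, was at 206.4 FPKM in B6 against 53.3 in CAST, with F1i at 131 and F1r at 122, both near the middle. Eno1-205, a coding form of 773 bases, was at 1.22 FPKM in B6, beside 21.3 in CAST, with 0.272 and 1.74 in the F1i and F1r hybrids. Eno1-210, of 519 bases, was at 1.61, 14.5, 1.56 and 1.11 FPKM. Both short forms were high in CAST alone, and the hybrids were level with B6, with positions from -0.047 to 0.026. They end in exons 6 and 7, so they lie mostly over the exons that the copies share in full. Eno1-202 was 96.1% (B6), 56.1% (CAST), 95.7% (F1i) and 93.8% (F1r) of the gene's FPKM. Counted as FPKM times length, its share in CAST was 76.8%. Eno1-205 has another exon 4 (chr4:150241767-150241825) in place of that of Eno1-202 (chr4:150242122-150242180), both on the plus strand and 59 bases long. The exon of Eno1-205 is shown because the form that is high in CAST carries it and Eno1-202 does not. It is written 5′ to 3′, with the 29 positions at which it differs from the exon it replaces in capitals:
Eno1-205 exon 4: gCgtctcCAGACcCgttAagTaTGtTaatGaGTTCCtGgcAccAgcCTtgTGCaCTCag

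Eno2 stood at 276 (B6), 316 (CAST), 308 (F1i) and 303 FPKM (F1r). B6 was the lowest, with a difference of 0.20, and Eno2 was above Eno1 in all 4 libraries. Its main form Eno2-201 was at 198, 203, 223 and 211 FPKM. The retained-intron form Eno2-203 was at 10.7, 34.0, 17.5 and 19.9, highest in CAST with both hybrids between the parents. The gap in FPKM between CAST and B6 was wider for it than for Eno2-201. Eno2-216 was at 6.71, 20.2, 5.83 and 16.7 FPKM, high in CAST and F1r and low in B6 and F1i. Eno3, the muscle enolase, did not exceed 2.38 FPKM.

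Pkm makes pyruvate and ATP. It was at 450.4 FPKM in B6 against 394 in CAST, with F1i at 434 and F1r at 407, the second highest of the 10 in every library, and B6 exceeded CAST by a difference of -0.19 as CAST minus B6. Its transcripts carry 1 of a pair of mutually exclusive exons, which give the M1 form (upstream exon, the constitutively active enzyme) or the M2 form (downstream exon, the regulated enzyme). The M1 exon of Pkm-202 (chr9:59675029-59675195) and the M2 exon of Pkm-201 (chr9:59675568-59675734) are both 167 bases long on the plus strand. They are shown because reads that separate the forms must cover them, 5′ to 3′ and with the 64 differing positions in capitals:
Pkm-202, M1 exon: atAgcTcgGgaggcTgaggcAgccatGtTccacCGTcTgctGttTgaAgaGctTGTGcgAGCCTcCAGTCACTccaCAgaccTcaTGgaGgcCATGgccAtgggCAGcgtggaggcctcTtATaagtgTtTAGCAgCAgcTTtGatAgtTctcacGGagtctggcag
Pkm-201, M2 exon: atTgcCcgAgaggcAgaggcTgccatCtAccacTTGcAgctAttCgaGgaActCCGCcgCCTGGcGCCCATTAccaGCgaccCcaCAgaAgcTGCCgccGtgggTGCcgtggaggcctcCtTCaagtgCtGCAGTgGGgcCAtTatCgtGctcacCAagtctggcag
Pkm-201 was at 249 FPKM in B6, beside 196 in CAST, with 223 and 209.5 in the F1i and F1r hybrids, and Pkm-202 at 197, 189, 204 and 193. Both forms were abundant, and Pkm-201, which carries the M2 exon, was listed higher in all 4 libraries. These transcripts also differ at both ends, being 2432 and 2041 bases long, so their levels do not rest on the M1 and M2 exons alone. The share of Pkm-201 was 55.3% (B6), 49.7% (CAST), 51.4% (F1i) and 51.5% (F1r).

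The processed pseudogene Gm6560 (chr5:22724578-22726168, minus strand) is a copy of Pkm, and it was at 11.9 FPKM in B6 against 24.4 in CAST, with F1i at 19.9 and F1r at 18.0. CAST was 2.05 times B6 as untransformed FPKM, and 0.98 on the log2(FPKM + 1) scale, just under the 2-fold rule. The M2 exon shown above differs from Gm6560 at 4 positions, 1 of them a base that the copy lacks, and 40.9% of its words occur in the copy. The M1 exon differs from it at 60 positions, gaps counted, and shares no word. The stretch of Gm6560 that lines up with the M2 exon (chr5:22724864-22725029, minus strand, 166 bases) is printed for comparison, with its 3 substituted bases in capitals:
Gm6560: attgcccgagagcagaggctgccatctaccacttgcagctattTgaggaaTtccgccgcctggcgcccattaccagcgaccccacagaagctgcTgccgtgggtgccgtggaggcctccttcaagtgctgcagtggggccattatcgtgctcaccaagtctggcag
Adding the copy left Pkm at -0.18.

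Ldha, the lactate dehydrogenase subunit that is typical of muscle, was at 100.2 FPKM in B6, beside 95.8 in CAST, with 94.4 and 93.6 in the F1i and F1r hybrids. The 4 libraries were nearly level, with a difference of -0.06. Its partner subunit Ldhb was at 390, 284, 359 and 352 FPKM, above Ldha in each library, with CAST lowest and a difference of -0.46. The 1 copy of Ldhb found by its words summed to 16.5, 50.8, 42.3 and 31.01 FPKM, and it was higher in CAST than in B6, where Ldhb was lower. In F1i both were higher than in F1r.

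With each gene added to its copies as FPKM times length, 1 of the 10 stayed past 2-fold, Eno1b with Gm4735, while Eno1 went from -1.61 to -0.77 and Gapdh from -1.14 to -0.43. The other 7 lay between -0.27 and 0.17 with their copies. When Eno1, Eno1b and Gm4735 were taken as 1 item, none of the resulting items passed.

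**Figure D4:**
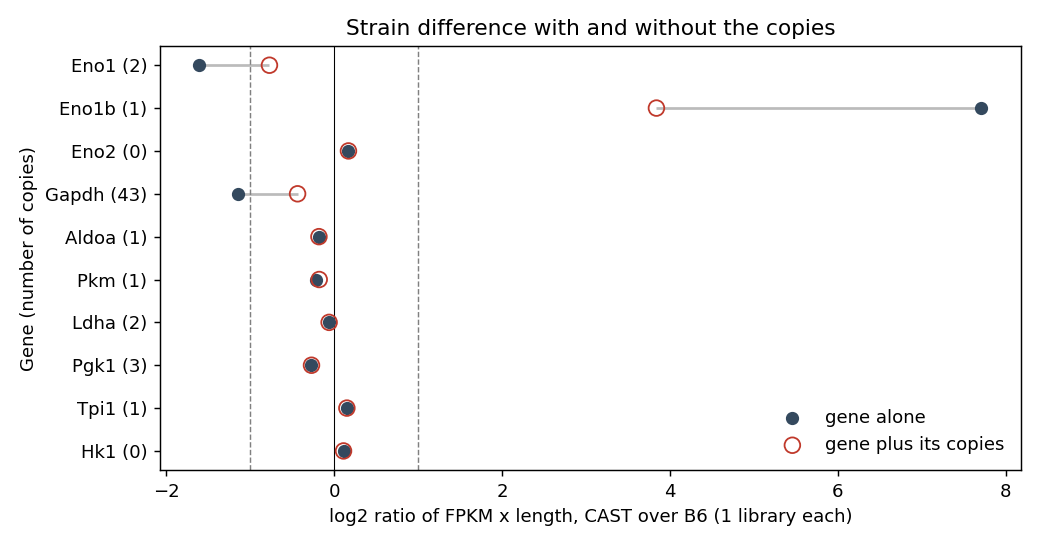
CAST over B6 log2 ratio of FPKM times length (x axis, 1 library each) for every gene alone (filled) and with its copies added (open), with the number of copies in brackets and dashed lines at 2-fold. The ratios of Eno1 and Gapdh move inside the lines, and those of the 7 genes without a large difference hardly move; Eno1 is not counted as a copy of Eno1b here.

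With all libraries rescaled to a common FPKM total, 2 of the 10 genes were 2-fold apart between CAST and B6, Eno1b and Gapdh, and Eno1 was not. Rescaling moved the median of all genes to 0.32, and the differences of Aldoa, Pkm, Ldha and Pgk1 then changed sign, to 0.16, 0.15, 0.27 and 0.07. Less that median, they were -0.15, -0.16, -0.04 and -0.24, on the side first given. Eno1 was at -0.82 after rescaling and -1.14 less the median, and Gapdh at -1.03 and -1.34.

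The mean of both hybrids, taken on the log2 scale, exceeded the mean of both parents by 2-fold for 1 of the 10 genes, beside 0.378% of all genes (0.284% higher and 0.0945% lower). The gene was Eno1b, at 1.48. With FPKM averaged before the logarithm it was at -0.04, as its hybrids lie midway on the linear scale. The other 9 genes lay between -0.29 and 0.06.

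Few further genes of the pathway were 2-fold apart between the strains. Of 50 further genes in lists of glycolytic enzymes, their control enzymes, transport and the pyruvate dehydrogenase complex, 38 had a mean of at least 1 FPKM. Of these 38, 1 was 2-fold higher and 1 lower in CAST, or 5.26%, close to the 5.09% of all genes, and none was 2-fold apart in the other comparisons. The lower gene was Mpc2, a subunit of the mitochondrial pyruvate carrier, at 90.6 (B6), 37.1 (CAST), 55.9 (F1i) and 55.8 FPKM (F1r). Both hybrids lay between the parents at 0.650 and 0.652, the difference was -1.26, and 0.613% of its words occur in other genes. Its partner subunit Mpc1 was at 64.8, 42.1, 44.95 and 45.7 FPKM, with a difference of -0.61. Of its words 12.6% occur in other genes, and its 1 copy was itself at 64.2, 53.4, 53.5 and 48.9 FPKM. The higher gene was Slc2a4, the insulin-responsive glucose transporter, at 1.04 FPKM in B6 against 3.12 in CAST, with F1i at 2.01 and F1r at 2.76. Rescaled to a common total, neither passed 2-fold, at -0.91 for Mpc2 and 0.90 for Slc2a4.

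Among the 12 further glycolytic enzymes above the filter, none was 2-fold apart, and their median was -0.14. Aldoc, the astrocyte aldolase, was at 408, 294.5, 374 and 331 FPKM, lowest in CAST at -0.47. Gpi1, which isomerises glucose 6-phosphate, was at 127, 131, 124 and 124 FPKM. The phosphofructokinase genes, which set the pace of the pathway, differed in sign, with Pfkm at 90.3 and 83.9 FPKM in B6 and CAST and Pfkp at 66.9 and 86.7. The 4 control enzymes above the filter had a median of 0.20, and the largest of their differences was that of Tigar, which lowers fructose 2,6-bisphosphate, at 7.89 FPKM in B6 and 4.74 in CAST. The 11 genes of the pyruvate dehydrogenase complex and its kinases ranged from -0.27 to 0.16. Slc2a1 and Slc2a3, the endothelial and neuronal glucose transporters, were at 20.7 and 40.7 FPKM in B6, and differed by -0.05 and -0.13 in CAST. Ldhc, Pgk2 and Gapdhs, which are known from testis, were listed at 0 in all 4 libraries.

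Oligodendrocyte and microglia markers summed to levels that ran in the order of Eno1 and Gapdh, with B6 highest, then F1i, F1r and CAST. So did the skeletal muscle list, at 192, 155, 185 and 164 FPKM, and the further glycolytic enzymes, at 1244, 1031, 1180 and 1134. The sums of the transport list and of the 10 genes themselves had this order too. The total FPKM of the libraries also ran this way, at 2.357e+06, 1.857e+06, 2.348e+06 and 1.943e+06. The order is therefore not particular to these lists. Most of the muscle sum was Pvalb, which neurons also make, at 170, 146, 177 and 154 FPKM, with F1i highest. All 8 oligodendrocyte markers were lower in CAST than in B6, and 3 of them, Mobp, Mal and Cldn11, by 2-fold, beside 2.25% of all genes. Rescaled to a common total, Mobp alone passed, at -1.10, with Mal at -0.82 and Cldn11 at -0.79. The summed level of the 8 oligodendrocyte markers was 2192 FPKM in B6, beside 1318 in CAST, with 1811 and 1660.2 in the F1i and F1r hybrids. None of the 8 was listed at 0. The neuron list ranged from -0.25 to 0.14, and its sum was 1811, 1678, 1795 and 1856 FPKM. Of 8 astrocyte, 6 microglia and 5 endothelial markers none was 2-fold apart, with medians of -0.05, -0.38 and 0.13. The microglia sum was 89.1, 67.3, 81.0 and 69.0 FPKM, and 5 of the 6 genes were lower in CAST than in B6. Of the 5 red cell genes above the filter 4 were lower in CAST, 2 of them by 2-fold, with a median of -0.67. Those 2 were Hba-a2, at 66.5 FPKM in B6 and 0.103 in CAST, and Hbb-bt, at 48.7 and 17.0. The related Hba-a1 was higher in CAST, at 107 and 137 FPKM. Words shared among the globin genes were not measured. The red cell sum was 514, 339, 506 and 320 FPKM, with F1r lowest. All 5 muscle genes above the filter were lower, 1 of them by 2-fold, with a median of -0.32. The part of these markers in the Eno1, Gapdh and Mpc2 differences was not tested.

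Likeness of pattern was measured as the root mean square distance of log2(FPKM + 1) over the 4 libraries, each gene centred on its own mean, among 9175 genes of at least 5 FPKM. Nearest to Eno1 were Tprkb (0.025), the myelin gene Pllp (0.025) and the fatty acid binding gene Fabp5 (0.045). Pllp was at 23.8 (B6), 9.85 (CAST), 14.2 (F1i) and 13.8 FPKM (F1r). Nearest to Eno1b were 3 annotated pseudogenes, Rps13-ps1 (0.10), Hist1h2al (0.11) and Rps15-ps2 (0.12). Rps15-ps2 was at 0.163 FPKM in B6 against 43.6 in CAST, with F1i at 21.9 and F1r at 19.8. Nearest to Gapdh were Hopx (0.11), Pllp (0.12) and Litaf (0.13). These distances rest on 4 libraries and describe only the size and direction of the differences between them.

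Other genes overlap some of these loci on the opposite strand: Fam57b overlaps Aldoa at 5.84 to 7.15 FPKM, Spsb2 overlaps Tpi1 at 2.201 to 2.98, and Hk1os overlaps Hk1 at no more than 0.605. These levels are small beside Aldoa, Tpi1 and Hk1.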

How the data were processed

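Total RNA of brain was sequenced from strand-specific libraries, 1 per group, each from the pooled left hemispheres of 5 mice per the labels' protocols. The authors deposited FPKM values per transcript, 1 table per library, with no counts and no confidence intervals. The build mm9 and the tools Cufflinks 2.2.1, Cuffdiff, HISAT2, Trimmomatic 0.36 and bcl2fastq 2.20 are named in the submitters' processing notes. The deposited coordinates, however, match GRCm38, since GENCODE M21 holds 99.58% of the 128603 transcripts, 97.17% of them with both ends unchanged. The handling of multiply matching reads, the strand setting of the counting and the genome used for CAST reads were not given in the sources used here.

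Transcripts under 200 bases and small RNAs by name were left out, and the rest were summed per gene. Genes with a mean of at least 1 FPKM over the 4 libraries were compared as log2(FPKM + 1) and counted at 2-fold. FPKM times length was used to add genes of unequal length. Copies were genes with at least 50% of their 31-base words in a listed gene's GENCODE M21 transcripts, or named as its pseudogene. The depth estimate came from the lowest step of FPKM times length of transcripts of at least 2000 bases.

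The genes, lists and alternatives were chosen with earlier results of these data known. Named genes are the 10 listed genes, pathway genes at least 2-fold apart and up to 4 others per list by level, copies at 5 FPKM or more, the 3 genes nearest in pattern, and up to 4 markers per list. Names of Gm plus digits or ending in Rik were passed over in the pattern search. Pgk1-rs7, Pdk3, Slc2a3, Hk2, Eno3, Tigar, the 3 testis genes, Tnnc2, Ckm, the overlapping genes and the copy of Ldhb were added after their values were seen. Alternatives were another pseudocount, filters, scalings, protein-coding transcripts only and sums with copies. The averaging of FPKM before the logarithm, the enolases as 1 item and Gapdh without Gapdh-206 were added after the data were seen. Python 3.11.15 with numpy 2.4.6, pandas 2.3.3, Biopython 1.88 and matplotlib 3.10.9 was used, and the steps were tested on simulated data.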

Additional observations from a re-analysis of the deposited data

How the results depend on the processing

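The 3 genes past 2-fold between CAST and B6 became 2 after rescaling to a common total, where Eno1 was at -0.82, 1 when each gene was summed with its copies, and 0 when Eno1, Eno1b and Gm4735 were 1 item. Eno1 plus Eno1b went from -0.72 to -1.08 as FPKM times length. The 1 gene in the mean of hybrids against parents became 0 after rescaling to a common total and 0 with FPKM averaged before the logarithm, where Eno1b reversed from 1.48 to -0.0388. Eno1b was at 0.97 after rescaling, and Gapdh at -0.68 without Gapdh-206. Of 231 alternative values for single genes, 225 kept their side of the 2-fold rule and 5 more kept only the direction of a gene that had passed. The count includes the changes of filter, which leave the values of single genes as they were and so could not move them. Genes past 2-fold over all genes ranged from 349 to 1063 for CAST against B6, where 700 had been counted, from 32 to 183 for F1r against F1i (68), and from 21 to 139 for hybrids against parents (52). On the log2 scale the positions of F1i and F1r were 0.81 and 0.78 for Eno1b and 0.67 and 0.64 for Gm4735. Of 96 transcript shares, 25 moved by 5 percentage points or more as FPKM times length. No paired analysis was possible because each group has 1 library, and for the same reason no library could be left out. The tables give no counts, so no interval can be set on any value, and reads of genes that share their sequence may have been assigned to either.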
